A study of Arachis hypogaea with 3 samples.

Results

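The enzymes of glycolysis and of the citric acid cycle were followed through 3 stages of gynophore growth in peanut (Arachis hypogaea). The gynophore is the organ that pushes the young fruit of this plant below ground. They were taken by name: every reference sequence was kept whose database description names phosphofructokinase, aldolase, glyceraldehyde-3-phosphate, phosphoglycerate kinase, enolase, pyruvate kinase, pyruvate dehydrogenase, citrate synthase, aconitase or aconitate, isocitrate dehydrogenase, 2-oxoglutarate dehydrogenase, succinate dehydrogenase, fumarase or malate dehydrogenase. This rule gave 163 of the 83579 sequences, 60 assembled unigenes and 103 public peanut sequences. Of these, 138 name an enzyme of the pathway itself and fall into 17 enzyme groups, and 25 carry a word of the rule inside the name of another enzyme. The names are those of the closest database protein and were not checked at the protein level. No sequence named fumarase. At least 1 read was counted for 162 of the 163, and 117 of them, 98 on the pathway, had an RPKM (reads per kilobase and per 1000000 counted reads) of at least 10 in at least 1 library.

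Glycolysis splits hexoses into pyruvate in the cytosol, the pyruvate dehydrogenase complex turns pyruvate into acetyl-CoA, and the citric acid cycle of the mitochondria oxidizes it and supplies carbon skeletons for amino acids. Plants keep a second set of many glycolytic enzymes in the plastids. There glyceraldehyde-3-phosphate dehydrogenase, phosphoglycerate kinase and aldolase also serve the Calvin cycle, the route by which green tissue fixes carbon dioxide.

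All 3 libraries came from field-grown plants of a single peanut cultivar, Luhua 14, and the labels name no treatment or mutant. S1 gynophores were still aerial, 3 to 5 cm long and green or purple. S2 gynophores had been buried for about 3 days, and S3 gynophores carried swelling pods of 2 to 3 mm. Each stage has 1 library, so no difference has a replicate check, and neither an SD nor a p-value can be given. The 3 libraries held 6.91, 6.67 and 7.15 counted reads in units of 1000000. All intervals are 95% intervals, exact Poisson for an RPKM and exact Clopper-Pearson for a ratio. They cover counting error only and compare libraries, not stages. Because light, burial and organ growth change together between the stages, their effects cannot be told apart, and in whole tissue fewer cells of a type cannot be told apart from less RNA per cell. The members were 154 to 2579 bases long (median 600 bases), against 433 for all sequences, and 104 of the 163 share their best database hit with another member. Such members can be fragments or close copies of 1 gene. The authors counted only reads with a single position, so reads common to close copies are missing from both.

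The pathway as a whole was lower in the swelling pod than in either earlier stage. The 138 sequences of the pathway together collected 55573, 48090 and 29464 reads at S1, S2 and S3, which is 8041, 7206 and 4121 reads per 1000000 counted reads. S2 stood close to S1, with an S2/S1 ratio of 0.896 (0.885 to 0.907), whereas S3 was well below S2, with a ratio of 0.572 (0.564 to 0.580), and below S1, with 0.513 (0.505 to 0.520). A sequence was counted as higher or lower where RPKM + 1 differed by at least 2 times. Between S2 and S3, 40 of the 162 members (24.7%) were lower in S3 and 6 (3.70%) higher, whereas 11.4% of all 81517 sequences with a read were lower and 18.6% higher. Between S1 and S3, 58 members (35.8%) were lower in S3 and 8 (4.94%) higher, against 13.9% and 21.0% of all sequences. Between S1 and S2 the members lay near the background for lower sequences, with 14 (8.64%) against 9.19%, and 5 (3.09%) were higher against 9.03%. The highest of the 3 RPKM values was in S1 for 84 members, in S2 for 50 and in S3 for 28, or 51.9%, 30.9% and 17.3%, where all sequences gave 30.2%, 25.0% and 44.8%.

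The median log2 ratio of RPKM + 1 over the 162 members was −0.10 from S1 to S2, −0.48 from S2 to S3 and −0.75 from S1 to S3. Over all sequences with a read it was 0.00, 0.18 and 0.16. Rescaling the libraries by their upper quartile took the median of all sequences from S2 to S3 to 0.00 and that of the members to −0.71, or −0.00 and −0.72 by the median of their ratios. The members stood below all sequences under either scaling.

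Each of the 17 enzyme groups was summed over its sequences. From S2 to S3 the interval of the ratio lay below 1 for 14 of the 17 groups and above 1 for none. The lowest ratios belonged to pyrophosphate-dependent phosphofructokinase, the pyruvate dehydrogenase complex, isocitrate dehydrogenase and glyceraldehyde-3-phosphate dehydrogenase (GAPDH, 5 sequences, 0.442 (0.423 to 0.462)), and the values of the first 3 follow with each enzyme. Citrate synthase, the NADP-dependent GAPDH and the GAPDH B subunit were the 3 groups whose interval included 1. Under both rescalings described for the medians, citrate synthase and the NADP-dependent GAPDH also had an interval below 1, with 0.821 (0.737 to 0.914) and 0.813 (0.697 to 0.949) by the median of ratios. From S1 to S2, 10 groups had an interval below 1 and 2, enolase and isocitrate dehydrogenase, an interval above 1. Of the 10, the 2-oxoglutarate dehydrogenase complex included 1 after rescaling, with 0.961 (0.913 to 1.01) by the median of ratios.

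**Figure D1:**
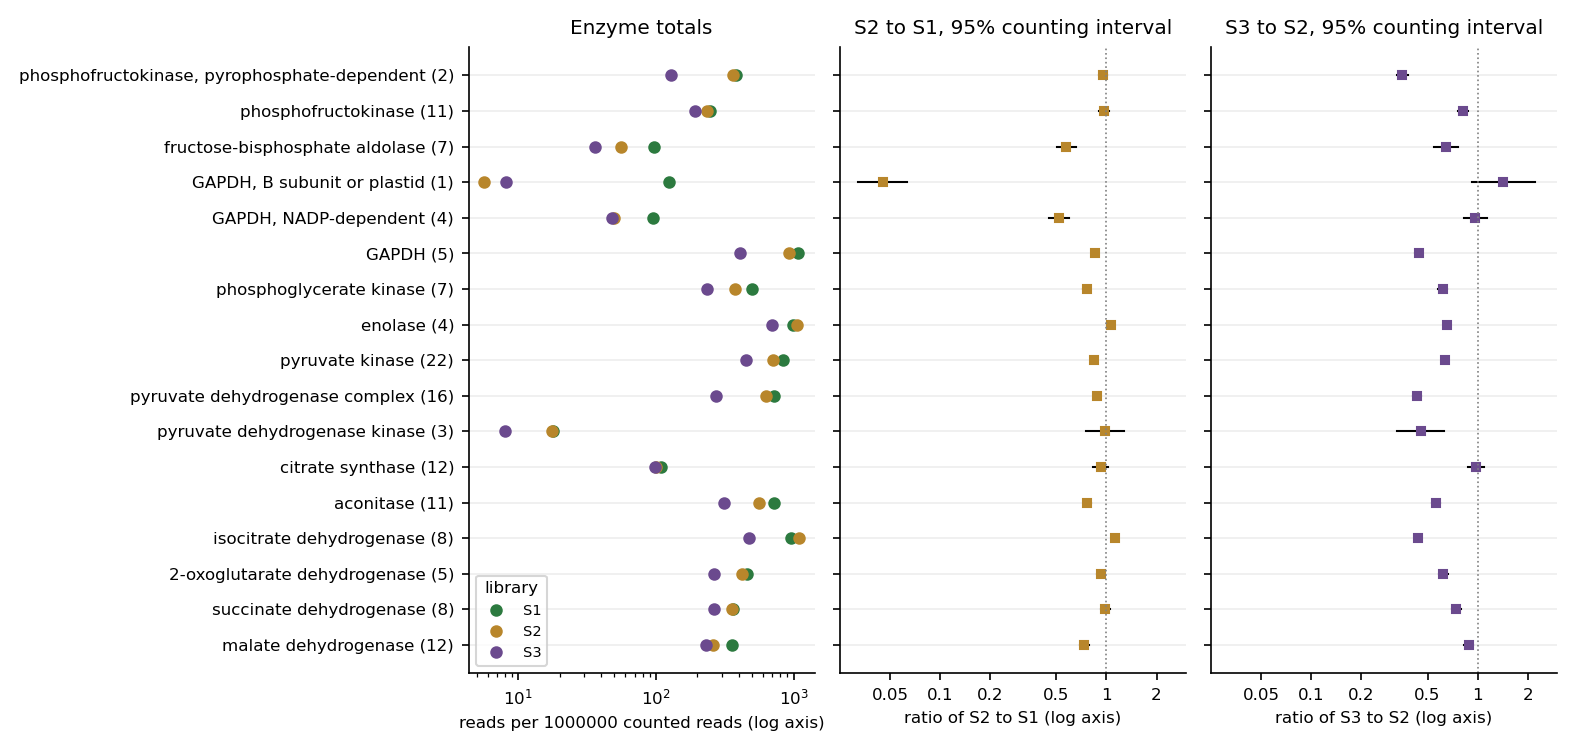
Summed reads of each of the 17 enzyme groups per 1000000 counted reads of the library (left, log axis, number of sequences in brackets), and the ratio of S2 to S1 (middle) and of S3 to S2 (right) with its 95% counting interval, on log axes. Each point is 1 library or a ratio of 2 libraries. The lowest S2/S1 ratios are those of the GAPDH B subunit at 0.0454, the NADP-dependent GAPDH at 0.519 and aldolase at 0.575. Malate dehydrogenase follows at 0.736. The S3/S2 intervals of 14 groups lie below 1.

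Large differences between the aerial and the newly buried gynophore were seen in single forms of several enzymes, and GAPDH showed them most. GAPDH oxidizes glyceraldehyde-3-phosphate and reduces NAD+ in glycolysis, and its plastid form, built of A and B subunits, runs in the opposite direction with NADPH. The B subunit sequence (EZ736179, 1679 bases) counted 866, 38 and 58 reads in the 3 libraries, for RPKM values of 74.6 (69.7 to 79.8), 3.39 (2.40 to 4.65) and 4.83 (3.67 to 6.25). It was high in S1 alone, 22.0 (15.9 to 31.3) times above S2, and the covered part of its bases went from 75.0% in S1 to 51.7% in S2. The 3 sequences named simply GAPDH that match 1 peanut protein also carry a thylakoid or chloroplast term in the annotation of cell components. Of these, EZ721116 had 284, 25 and 27 reads, an RPKM of 27.8, 2.54 and 2.56, and JF957835 had 131, 4 and 8 reads, an RPKM of 15.6, 0.492 and 0.919. They were 11.0 (7.28 to 17.2) and 31.6 (12.1 to 118) times lower in S2, although the reads of JF957835 covered only 7.88% of its bases in S1. The third, EZ721211, had 138, 76 and 33 reads and a smaller difference, with an S2/S1 ratio of 0.570 (0.425 to 0.760).

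The pair of GAPDH sequences without such a term held most of the GAPDH reads, and these differed far less between S1 and S2. EZ732115 had 3368, 2702 and 1390 reads, an RPKM of 381 (368 to 394), 317 (305 to 329) and 152 (144 to 160.2). EZ735422 had 3547, 3382 and 1473 reads, an RPKM of 298 (288 to 308), 294 (285 to 305) and 119.7 (114 to 126). The S2/S1 ratio was 0.831 (0.789 to 0.874) for EZ732115, somewhat lower in S2, and 0.987 (0.942 to 1.04) for EZ735422, which was level. Both stood well below these values in S3. Split by the thylakoid term, a split made after the values had been seen, the 4 GAPDH sequences with the term had 1419, 143 and 126 reads and an S2/S1 ratio of 0.104 (0.0872 to 0.124), and the 2 without it had 6915, 6084 and 2863 reads and a ratio of 0.911 (0.880 to 0.943). From S2 to S3 the ratios were 0.823 (0.642 to 1.05) with the term and 0.439 (0.420 to 0.459) without it. The 2 abundant sequences share their best hit and only 25.9% to 39.6% of their bases were covered, so their levels per length are low estimates if close copies took away shared reads.

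The NADP-dependent GAPDH, a separate enzyme that makes NADPH in the cytosol of plants, had 4 sequences. In RPKM + 1, 2 of them were at least 2 times lower in S2 and none higher, beside 9.19% and 9.03% of all sequences. EZ724051 (2090 bases) had 537, 167 and 204 reads. Its RPKM was 37.2, 12.0 and 13.7, with an S2/S1 ratio of 0.322 (0.269 to 0.384). Unigene64460, which has the same best hit, had 90, 149 and 131 reads and a ratio of 1.71 (1.31 to 2.25), in the opposite direction. EZ722082, chosen after its values were seen, was also lower in S2 but had only 27, 6 and 4 reads, with a ratio of 0.230 (0.0777 to 0.569). Without EZ724051 the S2/S1 ratio of this group went from 0.519 (0.454 to 0.594) to 1.39 (1.10 to 1.78).

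Aldolase, which cleaves fructose-1,6-bisphosphate into the triose phosphates, also had forms that parted in S2, but not along the plastid term as in GAPDH. EZ721168 (1504 bases) had 288, 20 and 19 reads, an RPKM of 27.7 (24.6 to 31.1), 1.99 (1.22 to 3.08) and 1.77 (1.06 to 2.76), and was 13.9 (8.84 to 23.1) times lower in S2 than in S1. EZ731959 had 331, 305 and 193 reads and RPKM values of 59.3, 56.6 and 33.4. Its S2/S1 ratio was 0.954 (0.814 to 1.12), so a difference was not detectable at this depth. The annotation places EZ731959, and not EZ721168, in the chloroplast stroma. The 6 aldolases without such a term had 341, 68 and 65 reads and an S2/S1 ratio of 0.206 (0.157 to 0.269). That sum rests mainly on EZ721168, which held 288 of the 341 reads in S1, and does not describe the 6 as a set. Of all 7 aldolases, 1 was at least 2 times lower in S2 and 0 higher, beside 9.19% and 9.03% of all sequences. The S2/S1 ratio of all 7 aldolase sequences was 0.575 (0.505 to 0.653), and without EZ721168 it was 0.952 (0.821 to 1.10).

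Phosphoglycerate kinase, the first enzyme of glycolysis that yields ATP, had 2 abundant sequences at nearly equal levels in S1 that parted in S2. EZ723080 (1708 bases, with a chloroplast or plastid stroma term) had 1464, 503 and 503 reads, an RPKM of 124 (118 to 131), 44.1 (40.4 to 48.2) and 41.2 (37.7 to 45.0). EZ727042 (1927 bases, without one) had 1569, 1673 and 945 reads, an RPKM of 118 (112 to 124), 130.1 (124 to 136) and 68.6 (64.3 to 73.1). The S2/S1 ratio was 0.356 (0.321 to 0.394) for the first and 1.10 (1.03 to 1.18) for the second. At the next step, S2 to S3, the order was the reverse, with ratios of 0.933 (0.823 to 1.06) and 0.527 (0.486 to 0.571). A shorter sequence with the same best hit as EZ723080, EZ721326, had 191, 77 and 68 reads and an S2/S1 ratio of 0.417 (0.316 to 0.547).

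Malate dehydrogenase interconverts malate and oxaloacetate, and its chloroplast NADP form exports reducing power from illuminated plastids. That form (EZ755186, 1752 bases) had 677, 89 and 288 reads, an RPKM of 55.9 (51.8 to 60.3), 7.61 (6.11 to 9.37) and 23.0 (20.4 to 25.8). It was lowest in S2 and partly back in S3, with an S2/S1 ratio of 0.136 (0.108 to 0.170) and an S3/S2 ratio of 3.02 (2.37 to 3.88). Its covered bases followed the same course, at 98.8%, 76.8% and 93.8%. Among all members with an RPKM of at least 10, this was the sequence with the second largest ratio of S3 to S2.

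Markers of green tissue moved in the same direction as the forms that were lower in S2. Among those forms, the aldolase EZ721168 carries no chloroplast or plastid stroma term. The 58 sequences named chlorophyll a/b-binding protein, small subunit of ribulose bisphosphate carboxylase or photosystem I or II had 26734, 1434 and 2668 reads, which is 3868, 215 and 373 reads per 1000000. In S1 53 of the 58 had a read, and 31 of the 58 were at least 2 times lower in S2, beside 9.19% of all sequences. Their part in the result was not tested. Not every sequence with a plastid term took this course. The 10 pyruvate kinases with a plastid stroma or chloroplast term had 1801, 1309 and 908 reads and an S2/S1 ratio of 0.753 (0.700 to 0.809), beside 0.891 (0.851 to 0.933) for the 12 without it. The 7 malate dehydrogenases with such a term had 1069, 639 and 496 reads and a ratio of 0.619 (0.560 to 0.683). Their median log2 ratio was on the other side, at 0.21. Of these 7, 1 was at least 2 times lower in S2 and 1 higher, beside 9.19% and 9.03% of all sequences. Over the whole pathway the 23 sequences with such a term had a summed S2/S1 ratio of 0.493 (0.472 to 0.516), and the 115 without it 0.946 (0.934 to 0.958). The sum gives most weight to abundant sequences. The median log2 ratio was −0.39 for the 23 and −0.10 for the 115. Of the 23, 5 were at least 2 times lower in S2 and 1 higher.

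**Figure D2:**
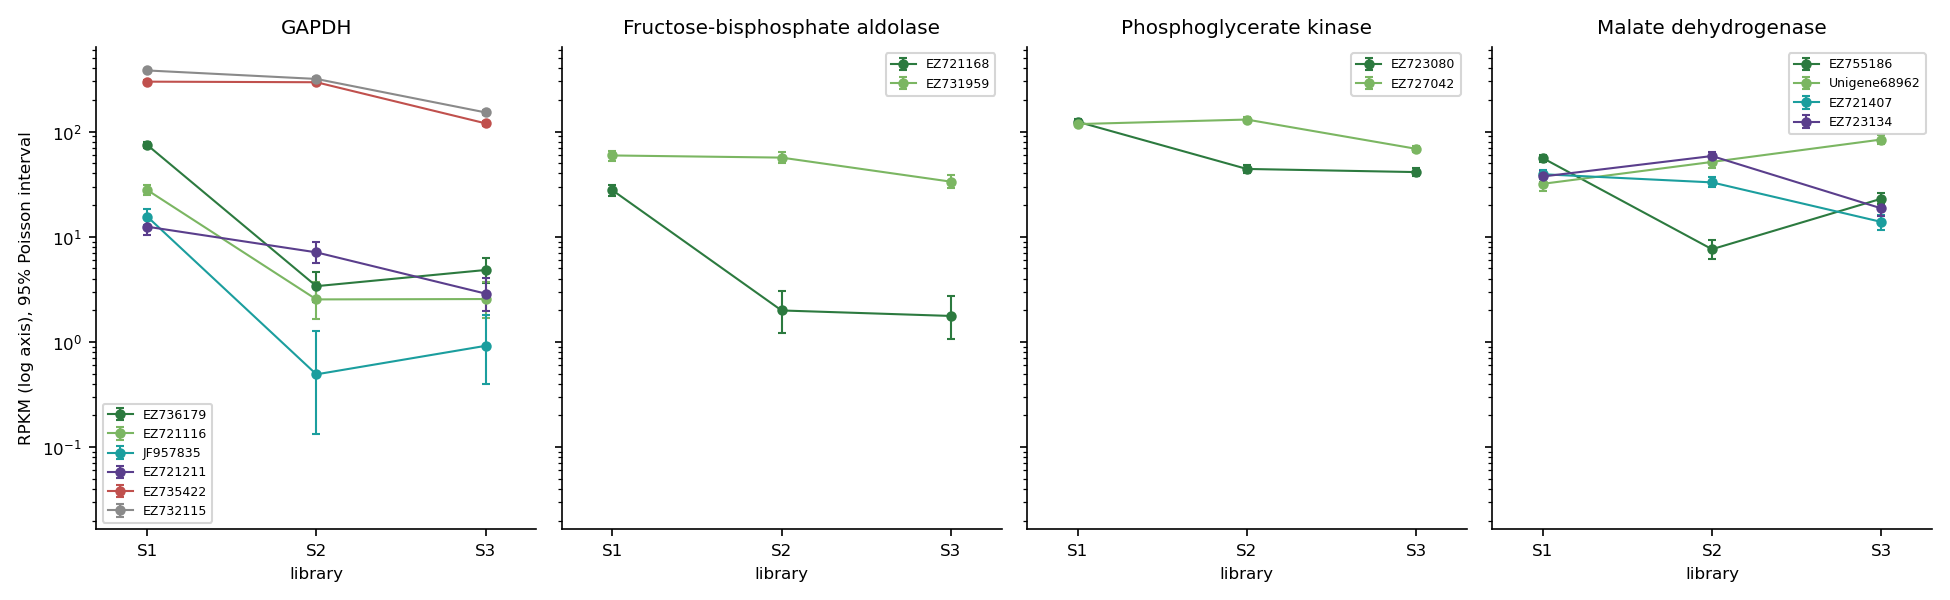
RPKM (log axis) in the S1, S2 and S3 libraries for single sequences of GAPDH, aldolase, phosphoglycerate kinase and malate dehydrogenase, with 95% Poisson intervals. In each panel at least 1 sequence drops steeply from S1 to S2 (EZ736179 from 74.6 to 3.39, EZ721168 from 27.7 to 1.99, EZ723080 from 124 to 44.1 and EZ755186 from 55.9 to 7.61), beside others that stay near their S1 level.

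At the entry of glycolysis the pyrophosphate-dependent phosphofructokinase, a plant enzyme that phosphorylates fructose-6-phosphate with pyrophosphate in place of ATP, had the lowest S3/S2 ratio of all 17 groups. Its beta subunit (Unigene71894, PfpB, 1335 bases) had 1349, 1357 and 332 reads, an RPKM of 146 (139 to 154), 152 (144 to 161) and 34.8 (31.1 to 38.7). The alpha subunit (Unigene72255, 1644 bases) had 1299, 1078 and 589 reads, an RPKM of 114, 98.3 and 50.1. Both stood at similar levels in S1 and S2 and lower in S3, with S3/S2 ratios of 0.228 (0.202 to 0.258) and 0.510 (0.461 to 0.564). The beta subunit, above the alpha subunit in S1 and S2, was below it in S3. For the pair together the ratio was 0.353 (0.327 to 0.381).

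The ATP-dependent phosphofructokinase, which catalyses the same step, differed less in sum, at 245, 236 and 193 reads per 1000000. Its S3/S2 ratio was 0.818 (0.761 to 0.880), and its 11 sequences did not share a single course. From S2 to S3, 1 of the 11 was at least 2 times higher and 2 lower, beside 18.6% and 11.4% of all sequences. EZ731650 (1186 bases) was the most abundant, with 656, 576 and 600 reads, RPKM values of 80.0, 72.8 and 70.8 and an S3/S2 ratio of 0.972 (0.866 to 1.09), or 0.815 (0.726 to 0.915) after rescaling by the median of ratios. EZ727118 had 231, 216 and 81 reads and was lower in S3, with a ratio of 0.350 (0.268 to 0.454). Unigene4011, whose best hit is phosphofructokinase 2 of Arabidopsis, had 10, 17 and 48 reads and was higher in S3, with a ratio of 2.64 (1.49 to 4.89). Unigene5740, named for its higher value in S3 after the values had been seen, had 24, 38 and 77 reads and a ratio of 1.89 (1.27 to 2.87).

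Enolase, which forms phosphoenolpyruvate, supplied the most abundant sequence of the pathway by reads. EZ723341 (2471 bases) had 6416, 6447 and 4561 reads, an RPKM of 376 (367 to 385), 391 (381 to 401) and 258 (251 to 266), and held 11.5%, 13.4% and 15.5% of all reads of the pathway. Its share grew although its own level was lower in S3, with an S3/S2 ratio of 0.660 (0.636 to 0.686), since the pathway as a whole was lower still. A second enolase, EZ732457 (461 bases), was higher at each later stage but rested on 10, 19 and 36 reads, with an S3/S1 ratio of 3.48 (1.69 to 7.86). All 4 enolase sequences together had an S2/S1 ratio of 1.06 (1.03 to 1.10) and an S3/S2 ratio of 0.656 (0.632 to 0.680).

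Pyruvate kinase makes pyruvate and ATP in the last step of glycolysis and had the most members, 22. They summed to 831, 705 and 448 reads per 1000000, with an S3/S2 ratio of 0.635 (0.607 to 0.665). Unigene72378 (1881 bases) led with 1458, 1366 and 890 reads, an RPKM of 112 (106 to 118), 109 (103 to 115) and 66.2 (61.9 to 70.7). Its S1 and S2 values differed by less than counting error and its S3 value lay below both. GW958040, named after a cytosolic isozyme, had 76, 73 and 19 reads and the largest difference of the group, with an S3/S2 ratio of 0.243 (0.138 to 0.407). From S1 to S3, 8 of the 22 were at least 2 times lower and none at least 2 times higher, where 13.9% and 21.0% of all sequences were.

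The pyruvate dehydrogenase complex joins glycolysis to the citric acid cycle through its components E1 (pyruvate dehydrogenase), E2 (dihydrolipoamide acetyltransferase) and E3. Its 16 sequences had 4929, 4195 and 1946 reads, with an S2/S1 ratio of 0.881 (0.846 to 0.919) and an S3/S2 ratio of 0.433 (0.410 to 0.457). In S3, 10 of the 16 were at least 2 times below S2 and none at least 2 times above, beside 11.4% and 18.6% of all sequences. The most abundant E2 sequence (Unigene72417, 2019 bases) had 1746, 1599 and 711 reads, an RPKM of 125 (119 to 131), 119 (113 to 125) and 49.3 (45.7 to 53.0), and its reads covered at least 99.1% of its bases in each library. It kept its level from S1 to S2 within counting error and stood at 0.415 (0.379 to 0.454) of it in S3.

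Of the 5 sequences of the E1 alpha subunit, which holds the sites of phosphorylation, 4 were lower in S3 by a similar factor and 1 ran the other way. GW991321 had 391, 376 and 87 reads, an RPKM of 127 (115 to 140.4), 127 (114 to 140.1) and 27.3 (21.9 to 33.7). Unigene53840 had 308, 200 and 57 reads, an RPKM of 146, 98.3 and 26.1. For GW991321, Unigene53840, Unigene57644 and Unigene42940 the S3/S2 ratios were 0.216 (0.169 to 0.273), 0.266 (0.195 to 0.359), 0.221 (0.164 to 0.293) and 0.222 (0.114 to 0.402). EZ734615 (572 bases) had 44, 111 and 153 reads, an RPKM of 11.1 (8.09 to 14.9), 29.1 (23.9 to 35.0) and 37.4 (31.7 to 43.8). It was the lowest of the 5 in S1 and the highest in S3, with an S2/S1 ratio of 2.61 (1.83 to 3.79) and an S3/S1 ratio of 3.36 (2.39 to 4.81). Its S3/S2 ratio was 1.29 (1.00 to 1.66), or 1.08 (0.839 to 1.39) after rescaling by the median of ratios. EZ734615, GW991321 and Unigene42940 match the same cotton protein, and whether they are 1 gene or several was not tested. The other sequence of the complex higher in S3 than in S1 by at least its interval, EZ721472, had 27, 40 and 56 reads and a ratio of 2.00 (1.25 to 3.30), chosen after its values were seen.

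Pyruvate dehydrogenase kinase, which switches the complex off by phosphorylating E1 alpha, had few reads. Its 3 sequences had 124, 117 and 57 reads and an S3/S2 ratio of 0.455 (0.325 to 0.629). The leading one, EZ721636, had 67, 60 and 28 reads, an RPKM of 12.5 (9.66 to 15.8), 11.6 (8.82 to 14.9) and 5.03 (3.35 to 7.28), and was lower in S3 than in S1 and S2.

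**Figure D3:**
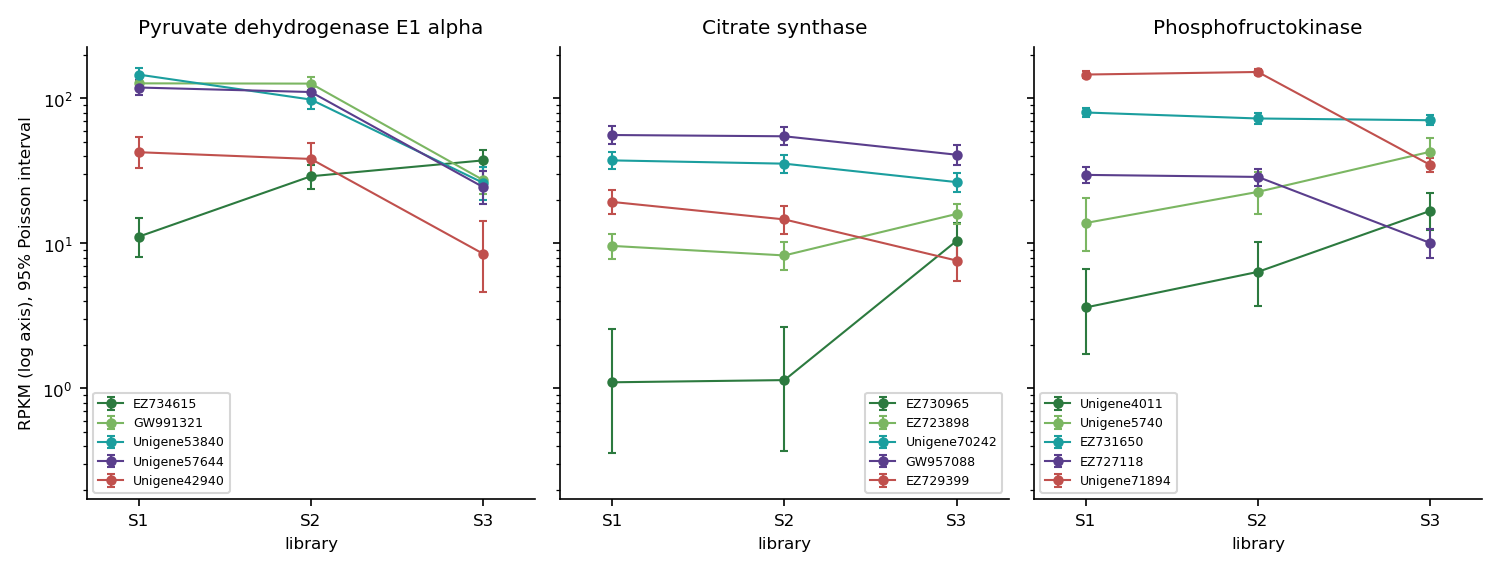
RPKM (log axis) in the S1, S2 and S3 libraries for the 5 pyruvate dehydrogenase E1 alpha sequences, 5 citrate synthases and 5 phosphofructokinases (Unigene71894 is the pyrophosphate-dependent beta subunit), with 95% Poisson intervals. Lines cross between S2 and S3 in every panel: EZ734615 goes from 29.1 to 37.4 while GW991321 goes from 127 to 27.3, EZ730965 goes from 1.14 to 10.4 while EZ729399 goes from 14.6 to 7.62, and Unigene4011 goes from 6.37 to 16.8 while EZ727118 goes from 28.8 to 10.1.

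Citrate synthase, which opens the citric acid cycle by joining acetyl-CoA to oxaloacetate, differed little in sum at the deposited scaling. Its 12 sequences had 750, 668 and 701 reads, and the S3/S2 ratio of 0.980 (0.880 to 1.09) includes 1. As given above, it lay below 1 after rescaling. Single sequences differed. GW957088, named a peroxisomal citrate synthase, had 205, 194 and 155 reads, an RPKM of 56.0 (48.6 to 64.2), 54.8 (47.4 to 63.1) and 40.9 (34.7 to 47.9), and was lowest in S3. EZ729399 had 108, 79 and 44 reads and an S3/S2 ratio of 0.520 (0.351 to 0.761), with 16.2% of its bases covered in S3. EZ730965 (656 bases) had 5, 5 and 49 reads, an RPKM of 1.10 (0.358 to 2.57), 1.14 (0.371 to 2.67) and 10.4 (7.73 to 13.8), and was higher in S3 alone, with an S3/S2 ratio of 9.15 (3.66 to 29.4) and covered bases of 30.5%, 32.5% and 69.8%. A further 2 sequences with the best hit of GW957088 were higher in S3, chosen after their values were seen. They were Unigene42703, with 22, 24 and 54 reads and a ratio of 2.10 (1.28 to 3.55), and EZ723898, with 100, 83 and 172 reads and 1.93 (1.48 to 2.55).

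Aconitase, which isomerizes citrate to isocitrate, was lower at both steps. Its 11 sequences had 4999, 3712 and 2238 reads, with an S2/S1 ratio of 0.769 (0.737 to 0.802) and an S3/S2 ratio of 0.563 (0.534 to 0.593). Unigene60195 (390 bases) had the highest mean RPKM of the group, at 114 (101 to 127), 103 (91.4 to 116) and 62.4 (53.5 to 72.4) from 306, 269 and 174 reads. Unigene64939 (507 bases) had 404, 198 and 119 reads, an RPKM of 115 (104 to 127), 58.5 (50.6 to 67.3) and 32.8 (27.2 to 39.3). The pair had near-equal levels in S1 and separated later, with S2/S1 ratios of 0.910 (0.770 to 1.08) and 0.508 (0.426 to 0.603).

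Isocitrate dehydrogenase was the cycle enzyme with the most reads and was highest in S2. The NAD form works in the mitochondrial cycle and the NADP form supplies 2-oxoglutarate and NADPH in the cytosol and organelles. The most abundant sequence, named NADPH-specific (EZ721129, 1646 bases), had 4251, 4908 and 2101 reads, an RPKM of 374 (363 to 385), 447 (434 to 459) and 179 (171 to 186). Its S2 value was the highest RPKM of any member in any library. The S2/S1 ratio was 1.20 (1.15 to 1.25) and the S3/S2 ratio 0.400 (0.380 to 0.421). All 8 sequences had an S2/S1 ratio of 1.13 (1.10 to 1.17), which without EZ721129 became 1.02 (0.966 to 1.08), so the higher S2 sum rests on that sequence. Between S2 and S3 the ratio was 0.437 (0.420 to 0.456) with it and 0.516 (0.482 to 0.552) without it. The largest decrease from S1 to S3 in the group was that of Unigene64484, which had 90, 58 and 41 reads and an S3/S1 ratio of 0.440 (0.297 to 0.644). A sequence named NAD+ isocitrate dehydrogenase, Unigene3929, had 102, 85 and 84 reads and an S3/S2 ratio of 0.923 (0.674 to 1.26), where a difference was not detectable at this depth.

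The 2-oxoglutarate dehydrogenase complex, which makes succinyl-CoA, had 3153, 2812 and 1874 reads over 5 sequences and an S3/S2 ratio of 0.622 (0.586 to 0.660). Its succinyltransferase component (EZ722036, 1937 bases) had 2393, 2349 and 1510 reads, an RPKM of 179 (172 to 186), 182 (174 to 189) and 109 (104 to 115), and its reads covered at least 93.8% of the bases. The sequence named for the dehydrogenase itself (Unigene71932, 1353 bases) had 755, 460 and 354 reads, an RPKM of 80.7 (75.1 to 86.7), 50.9 (46.4 to 55.8) and 36.6 (32.9 to 40.6). The former was level in S1 and S2 and lower in S3, whereas the latter was already lower in S2, with S2/S1 ratios of 1.02 (0.960 to 1.08) and 0.631 (0.561 to 0.709).

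Succinate dehydrogenase, which also passes electrons to the respiratory chain, differed little in sum between S1 and S2. Its 8 sequences had 2490, 2371 and 1889 reads, an S2/S1 ratio of 0.986 (0.932 to 1.04) and an S3/S2 ratio of 0.744 (0.700 to 0.790). EZ727278 (1777 bases) had 1440, 1392 and 870 reads, an RPKM of 117 (111 to 123), 117 (111 to 124) and 68.5 (64.0 to 73.2), equal in S1 and S2 within counting error and lower in S3. The 3 sequences with the same melon protein as best hit did not share this course. Chosen after its values were seen, EZ730596 had 113, 95 and 186 reads and an S3/S2 ratio of 1.83 (1.42 to 2.37).

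Malate dehydrogenase closes the cycle, and beside the chloroplast form described above its sequences split by direction in S3. Unigene68962 (731 bases), named NADP+ malate dehydrogenase with no plastid term, had 161, 251 and 439 reads, an RPKM of 31.9 (27.1 to 37.2), 51.4 (45.3 to 58.2) and 84.0 (76.3 to 92.2), higher at each later stage. Its S3/S1 ratio was 2.64 (2.20 to 3.18). EZ721407, a NAD-dependent form, had 406, 328 and 148 reads, an RPKM of 39.3 (35.6 to 43.3), 32.9 (29.4 to 36.6) and 13.8 (11.7 to 16.3), and was lower in S3, with an S3/S2 ratio of 0.421 (0.345 to 0.513). All 12 had 2445, 1738 and 1641 reads and an S2/S1 ratio of 0.736 (0.692 to 0.783), which was 0.966 (0.903 to 1.03) without the chloroplast form EZ755186. The S3/S2 ratio was 0.881 (0.823 to 0.943) with all 12 and 0.766 (0.712 to 0.824) without it.

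Among the 98 pathway sequences that reached an RPKM of 10 in some library, 26 (26.5%) were at least 2 times lower in S3 than in S2 and 4 (4.08%) higher, against 13.5% and 22.0% of the 42547 sequences of the table at that level. From S1 to S2, 10 (10.2%) were lower in S2 and 1 (1.02%) higher, against 9.16% and 8.31%. The 4 sequences higher in S3 were the citrate synthases EZ730965 and Unigene42703, the phosphofructokinase Unigene4011 and the chloroplast malate dehydrogenase EZ755186.

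**Figure D4:**
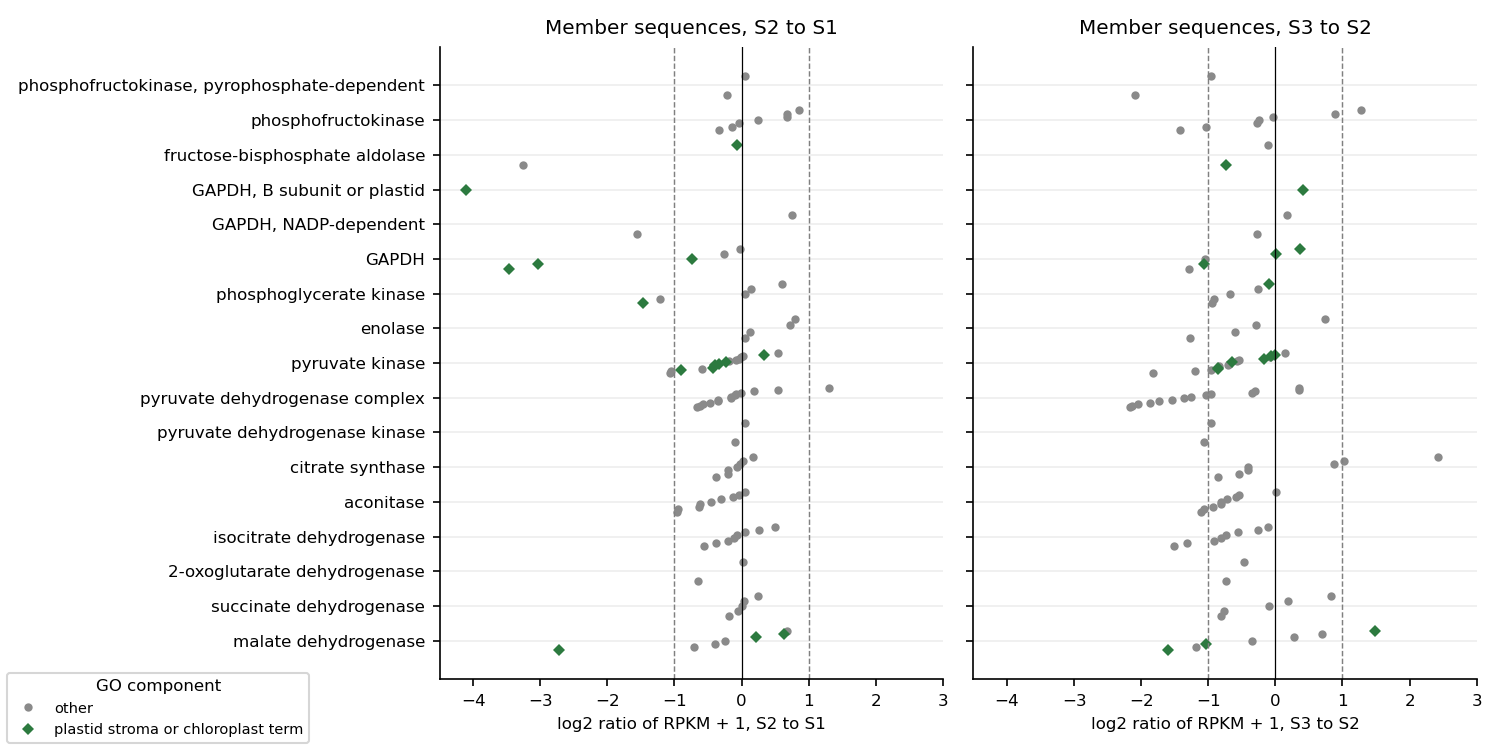
Log2 ratio of RPKM + 1 for each of the 98 pathway sequences that reached an RPKM of 10 in some library, from S1 to S2 (left) and from S2 to S3 (right), by enzyme group. Green diamonds carry a plastid stroma or chloroplast term, grey points do not, and dashed lines mark a difference of 2 times. From S1 to S2, 10 sequences lie below the lower line and 1 above the upper line, and from S2 to S3 26 lie below and 4 above.

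Grouped by the compartment that the description names, the 6 mitochondrial names, all of the pyruvate dehydrogenase complex or its kinase, had 746, 599 and 182 reads and an S3/S2 ratio of 0.284 (0.239 to 0.335). The 4 peroxisomal names, citrate synthase and malate dehydrogenase, had 686, 562 and 721 reads and a ratio of 1.20 (1.07 to 1.34), or 1.00 (0.897 to 1.12) after rescaling by the median of ratios. The peroxisomal forms serve the glyoxylate cycle and fatty acid breakdown. The 4 chloroplast or plastid names had 955, 230 and 444 reads and the largest S3/S2 ratio of these groups, 1.80 (1.53 to 2.12). The 6 cytosolic names had 591, 452 and 283 reads and a ratio of 0.584 (0.502 to 0.680). A further 118 sequences of the pathway name no compartment, and all isocitrate, 2-oxoglutarate and succinate dehydrogenases are among them.

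The 25 sequences with another enzyme's name included 9 DAHP synthases, filed as aldolases, which open the shikimate route to aromatic amino acids. They were highest in S2, with 2209, 3014 and 1043 reads, an S2/S1 ratio of 1.41 (1.34 to 1.49) and an S3/S2 ratio of 0.323 (0.301 to 0.347), and 8 of the 9 were at least 2 times lower in S3 than in S2, beside 11.4% of all sequences. EZ740598 (828 bases) had 1077, 1299 and 514 reads, an RPKM of 188 (177 to 199.8), 235 (222 to 248) and 86.8 (79.5 to 94.7). GW971194 had 140, 440 and 98 reads, an RPKM of 32.0 (26.9 to 37.7), 104 (94.5 to 114) and 21.6 (17.6 to 26.3), with an S2/S1 ratio of 3.25 (2.68 to 3.96), the largest of all members with an RPKM of at least 10. Unigene11477 had 98, 223 and 57 reads and EZ740597 200, 278 and 64 reads, both highest in S2. The 2 enolase-phosphatases, which recycle methionine, were the opposite case, with 1056, 1066 and 1616 reads and an S3/S2 ratio of 1.42 (1.31 to 1.53). Their leading sequence, EZ721502, had 1009, 1025 and 1535 reads. The 2 sequences named ATP-citrate synthase, which splits citrate in the cytosol, had 564, 688 and 341 reads and an S3/S2 ratio of 0.463 (0.405 to 0.528), with 344, 255 and 96 reads for JK209198. The 5 class II ketose-bisphosphate aldolase names had 400, 302 and 296 reads, among them Unigene745 with 53, 41 and 57 and Unigene9639 with 179, 113 and 85. The 5 other aldolase names, led by a threonine aldolase (Unigene16595, 273, 327 and 146 reads), had 401, 440 and 291 reads, the transaldolase DQ889553 had 56, 73 and 61, and the 1 homocitrate synthase had no read in any library.

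Enzymes on or next to these routes whose names the rule does not list were also lower in sum in S3 than in S2. Of 85 such sequences 83 had a read. From S2 to S3, 20 of them (24.1%) were at least 2 times lower and 3 (3.61%) higher, beside 11.4% and 18.6% of all sequences, with a median log2 ratio of −0.53. Of the 20, 10 were ATP citrate lyase, the enzyme also named ATP-citrate synthase, and without its 12 sequences 10 of 71 (14.1%) were lower and 3 (4.23%) higher, with a median of −0.42. The summed reads of all 85 were 32219, 29573 and 18599, an S3/S2 ratio of 0.587 (0.576 to 0.598), or 0.629 (0.617 to 0.642) without ATP citrate lyase. Succinyl-CoA ligase, ATP citrate lyase, phosphoglycerate mutase and glucose-6-phosphate isomerase had S3/S2 ratios of 0.340 (0.308 to 0.375), 0.348 (0.329 to 0.368), 0.404 (0.376 to 0.434) and 0.474 (0.420 to 0.535). Triosephosphate isomerase stood at 0.517 (0.467 to 0.572), phosphoglucomutase at 0.574 (0.547 to 0.604), the dihydrolipoyl enzymes at 0.501 (0.446 to 0.561), phosphoenolpyruvate carboxylase at 0.732 (0.696 to 0.770) and malic enzyme at 0.718 (0.695 to 0.742). Hexokinase, which phosphorylates glucose, had 1410, 2056 and 1904 reads. It was the one group of this list whose sum was higher both in S2 and in S3 than in S1, with ratios of 1.51 (1.41 to 1.62) and 1.31 (1.22 to 1.40). Unigene70534, with 678, 1108 and 1000 reads, and Unigene1004, with 254, 476 and 489, held most of these reads. Over the 11 sequences the median log2 ratio from S1 to S3 was −0.56. Of the 11, 3 were at least 2 times lower in S3 and 0 higher, beside 13.9% and 21.0% of all sequences.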

How the data were processed

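Poly(A) RNA of 3 gynophore stages was sequenced with 1 library per stage. The authors made the deposited read counts from reads that fit only 1 place in the reference, and the deposited RPKM by dividing the counts by sequence length and library total. The deposited percent of covered bases and the annotation were also read. For the aligner, a name was not given in the sources used here. Members were chosen by words in the annotation. The members, the enzyme groups and the other lists were chosen with earlier results of these data known. No identifier matched the supplied peanut gene list, and no genome was used, so no position or sequence is given.

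No test was made. RPKM values were used as deposited, exact 95% Poisson and Clopper-Pearson intervals were computed, and log2 ratios used RPKM + 1. A library without a read kept an RPKM of 0, to which the 1 was added for the log2 ratio. Enzyme totals are summed reads over the counted reads of the library. Depth was 6.67 to 7.15 counted reads in units of 1000000. The named sequences are, in each group, the one with the highest mean RPKM and those with the largest rise and fall from S1 to S3 of at least 2 times at an RPKM of at least 10, with the 3 largest rises and falls of each step. All other sequences named were chosen after their values were seen, also where the text does not mark them. ATP-citrate synthase and homocitrate synthase were set apart after the data had been seen. Alternatives were other library scalings, a pseudocount of 0.1, a limit of 1.5 times, an RPKM of at least 10, unigenes only and pathway names only. The interval code was tested on simulated data. Scripts ran on Python 3.11.15 (pandas 2.3.3, scipy 1.17.1, numpy 2.4.6, matplotlib 3.10.9).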

Additional observations from a re-analysis of the deposited data

How the results depend on the processing

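No paired analysis was possible because the design holds a single library per stage, and for the same reason no library could be left out. Counts are for sequences at least 2 times higher or lower. From S1 to S2 the 5 higher members became 9 with a pseudocount of 0.1, 19 at a limit of 1.5 times, 3 at an RPKM of at least 10, 1 with unigenes only and 2 with pathway names only, and the 14 lower members became 32 at 1.5 times and 0 with unigenes only. Between S2 and S3 the 6 higher members became 15, 20 and 3 under the pseudocount, the 1.5-times limit and unigenes only, and the 40 lower ones 73 and 16 under the last 2 of these. Between S1 and S3 the 8 higher members became 14, 20 and 4, and the 58 lower ones 93 and 20. These smaller counts with unigenes only are out of 60 sequences, and in percent of those sequences they were 26.7% lower from S2 to S3 and 33.3% from S1 to S3. The share of all sequences was taken only at the 2-times limit with RPKM + 1. Counts under the pseudocount of 0.1, the 1.5-times limit or unigenes only therefore have no background beside them and cannot be set against all sequences.

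The median log2 ratio from S2 to S3 went to −0.72 with median-of-ratios scaling, −0.71 with upper-quartile scaling and −0.71 at an RPKM of at least 10, and from S1 to S3 −0.90, −0.88 and −0.91. Unigenes alone cover 13 enzyme groups. Among them 1 was higher and 5 lower beyond counting error for the S1 to S2 step, 1 and 6 for S2 to S3, and 1 and 7 for S1 to S3, beside 2 and 10, 0 and 14, and 0 and 16 of 17 with all sequences. Without the public sequences 12 ratios whose interval excluded 1 changed direction, and so did succinate dehydrogenase from S1 to S2 (0.986 to 1.19), whose interval includes 1. From S1 to S2 they were NADP-dependent GAPDH (1.71), phosphoglycerate kinase (1.04) and isocitrate dehydrogenase (0.937). From S2 to S3 they were phosphofructokinase (1.06), aldolase (2.05), phosphoglycerate kinase (2.33) and malate dehydrogenase (1.20). From S1 to S3 they were aldolase (1.93), NADP-dependent GAPDH (1.41), phosphoglycerate kinase (2.42), succinate dehydrogenase (1.11) and malate dehydrogenase (1.05). The most abundant sequences of several of these groups are public ones, so this setting drops them. Under both rescalings 3 enzyme totals of S2 over S1 whose interval includes 1 crossed it, phosphofructokinase from 0.962 to 1.00 and 1.01, pyruvate dehydrogenase kinase from 0.977 to 1.02 and 1.03 and succinate dehydrogenase from 0.986 to 1.03 and 1.04 (median of ratios, upper quartile), and no other total changed direction. Medians with unigenes only or pathway names only, totals without 1 sequence, and the list of other enzymes without ATP citrate lyase, were added after the data had been seen.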
